A study of Mus musculus with 11 samples.

Results

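Neuropeptide precursor genes were compared between the carotid body, the adrenal medulla and the superior cervical ganglion of mice. The 10 genes were Npy, Gal, Vip, Penk, Adcyap1, Tac1, Cartpt, Nts, Sst and Cck. They were chosen by name, with earlier results of these data known. All 10 were measured among the 30142 genes that an array feature names with a single symbol. All animals were untreated wildtype C57B6 mice of both sexes aged 2 months. RNA of the carotid body, the arterial oxygen sensor, was hybridised on 3 arrays, each from a pool of 10 mice. RNA of the adrenal medulla, the catecholamine-secreting core of the adrenal gland, and of the superior cervical ganglion, which holds sympathetic neurons, was hybridised on 4 arrays each, with 3 mice in a pool. A replicate is therefore a pool of whole tissue, and the labels do not say how mice were divided among pools or name a batch. In such samples fewer cells of a type and less RNA per cell cannot be told apart.

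Neuropeptides are cut from larger precursor proteins inside dense core granules and released with the main transmitter of the cell. Neuropeptide Y is the classic companion of noradrenaline in sympathetic neurons and chromaffin cells. Enkephalins and galanin are also stored in adrenal chromaffin granules, and peptides act on G-protein-coupled receptors of the releasing cell or its neighbours.

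The sequences before the starts of Npy, Gal, Vip and Cartpt, the 4 genes that differed between adrenal medulla and carotid body, are shown. Each is the 250 bases before a RefSeq start, from RefSeq's GRCm38.p6 assembly, 5′ to 3′ on the gene's strand. The windows are chr6:49822460-49822709 on the plus strand for Npy, chr19:3414545-3414794 on the minus strand for Gal, chr10:5638968-5639217 on the plus strand for Vip and chr13:99900684-99900933 on the minus strand for Cartpt. Capitals mark TGACG, the core of the cAMP response element, on either strand, or the whole element TGACGTCA, which holds the core on both strands.
Npy: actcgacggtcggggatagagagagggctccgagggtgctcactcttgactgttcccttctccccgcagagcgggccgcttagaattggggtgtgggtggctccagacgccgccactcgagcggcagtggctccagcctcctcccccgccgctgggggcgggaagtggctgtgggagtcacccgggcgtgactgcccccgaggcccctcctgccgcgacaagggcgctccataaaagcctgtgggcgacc
Gal: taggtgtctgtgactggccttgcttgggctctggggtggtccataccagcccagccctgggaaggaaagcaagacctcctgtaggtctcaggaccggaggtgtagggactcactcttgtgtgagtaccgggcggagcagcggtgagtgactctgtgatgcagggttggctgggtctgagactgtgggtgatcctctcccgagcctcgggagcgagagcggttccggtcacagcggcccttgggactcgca
Vip: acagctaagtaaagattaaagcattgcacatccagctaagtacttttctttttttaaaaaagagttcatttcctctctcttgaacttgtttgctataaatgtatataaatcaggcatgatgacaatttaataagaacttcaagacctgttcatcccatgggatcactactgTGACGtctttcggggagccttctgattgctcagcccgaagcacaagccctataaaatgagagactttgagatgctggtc
Cartpt: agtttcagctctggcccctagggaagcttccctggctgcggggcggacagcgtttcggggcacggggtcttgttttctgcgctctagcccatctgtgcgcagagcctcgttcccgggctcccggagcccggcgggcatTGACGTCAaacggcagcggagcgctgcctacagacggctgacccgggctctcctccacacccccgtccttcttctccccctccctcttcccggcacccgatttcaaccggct
No core was found in the windows of Npy and Gal. In Vip the core began 79 bases before the start, and in Cartpt the whole element began 112 bases before it. RefSeq windows matched 9 of the 10 genes (all but Penk, with 10 entries because Adcyap1 has 2), and 7 of the 9 held the core, against 17.8% of all 32851 promoter windows of that length. The whole element was in 2 of the 9, Cartpt and Sst (48 bases before the start), against 1.55% of all windows. The AP-1 motif TGANTCA, searched on both strands, was found in Nts alone of the 9, against 6.75% of all windows. A match of letters is a description of the sequence and not a binding site, and its relation to the tissue patterns was not tested.

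The values are log2 signals, and differences are therefore log2 folds on the deposited scale. The array medians of all genes lay between 5.63 and 5.84. On each array 182 to 276 genes exceeded 16, more than a 16-bit scanner can record, and how the scale came to reach so far is not given in the sources used here. Background was judged per tissue from 540 vomeronasal receptor and keratin-associated protein genes, taken as silent here, and the 95th percentile of their means served as the bound. It was 5.41 in carotid body, 5.36 in adrenal medulla and 5.45 in ganglion, and 54.1% to 56.0% of all genes had a mean above it. The labelled tissues carried their markers. Th and Dbh, enzymes of catecholamine synthesis, exceeded 16 on every array, and Pnmt, the enzyme of adrenaline synthesis, lay between 13.39 and 14.77 on the adrenal medulla arrays but between 5.46 and 5.67 on the carotid body arrays. Cortex RNA was also present on the adrenal medulla arrays (7 of 7 cortex markers above the bound, summed level 21.22 to 21.40, against 7.74 to 8.15 for carotid body, with 2 of 7 above, and 7.64 to 8.26 for ganglion, with 1 of 7), where a summed level is log2 of the added linear signals. The part of cortex RNA in the results below was not tested.

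Of the 10 genes, Npy, Gal, Vip, Penk and Cartpt had means above the bound in every tissue. Sst lay at the bound, and Adcyap1, Tac1, Nts and Cck had means under it in all 3 tissues. A gene was called between tissues at a limma adjusted p under 0.05 and a difference of at least 1, a 2-fold difference. Against adrenal medulla, carotid body had 4 of the 10 genes called, of which Npy, Gal and Cartpt were lower in it and Vip was higher, while the share of all genes called was 11% (4.95% higher in adrenal medulla and 6.06% higher in carotid body). Between carotid body and ganglion 4 were called, with Npy and Gal higher in ganglion and Vip and Penk higher in carotid body, against 13.9% of all genes (8.28% higher in ganglion and 5.61% in carotid body). Between adrenal medulla and ganglion 3 were called, Npy, Gal and Cartpt, all higher in adrenal medulla, against 13.2% of all genes (5.72% higher in adrenal medulla and 7.5% in ganglion). The median absolute difference of the 10 genes was 0.57, 0.53 and 0.49 in these 3 comparisons, and that of all genes 0.21, 0.23 and 0.23. The median signed difference was 0.18, 0.09 and -0.03, beside 0.05, -0.02 and -0.08 for all genes. Each tissue's arrays serve in 2 of the comparisons, which are therefore not independent of each other. Because the 10 genes were chosen with earlier results of these data known, their shares and medians are descriptions only.

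**Figure D1:**
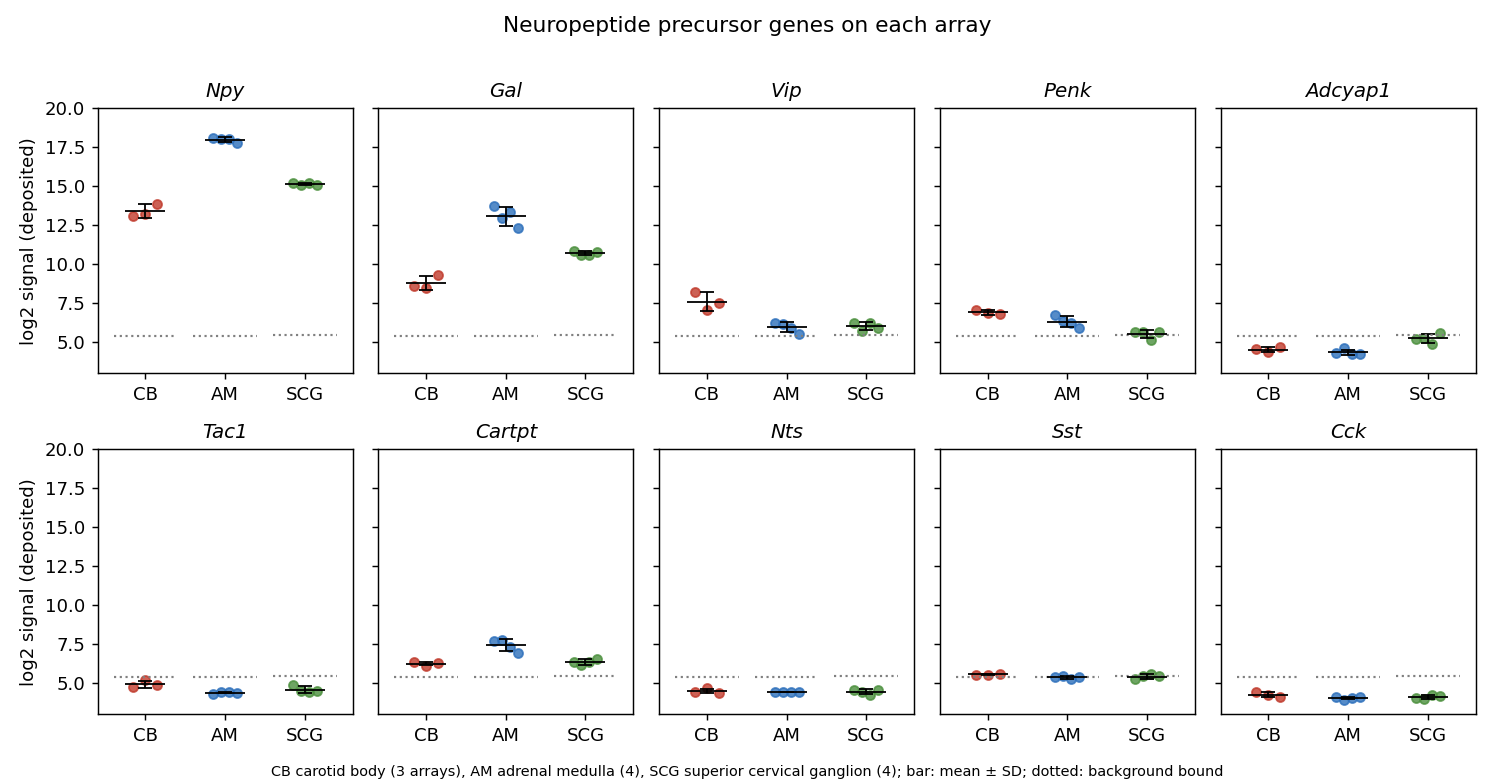
Log2 signal (vertical axis) of the 10 neuropeptide precursor genes on each array of carotid body (CB, 3 arrays), adrenal medulla (AM, 4) and superior cervical ganglion (SCG, 4), 1 panel per gene, with the mean and SD in black and the tissue's background bound dotted. Npy and Gal run adrenal medulla, ganglion, carotid body from high to low (17.98, 15.13 and 13.40 for Npy), Vip and Penk are highest in carotid body, and Adcyap1, Tac1, Nts and Cck have means under the bound in every tissue.

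Npy, the precursor of neuropeptide Y (transcript cluster TC0600000588.mm.1), was highest in adrenal medulla, intermediate in ganglion and lowest in carotid body. Its signal was 18.10, 18.03, 18.04 and 17.74 on the adrenal medulla arrays, 15.20, 15.10, 15.17 and 15.06 on the ganglion arrays and 13.06, 13.24 and 13.88 on the carotid body arrays. No array of a tissue reached into the range of another. The means were 17.98 ± 0.16 (SD, n = 4) in adrenal medulla, 15.13 ± 0.07 (SD, n = 4) in ganglion and 13.40 ± 0.43 (SD, n = 3) in carotid body. Npy was thus 24.0-fold higher in adrenal medulla than in carotid body (difference 4.58, SE 0.17, limma adjusted p = 1.47e-08) and 7.19-fold higher than in ganglion (2.85, SE 0.16, adjusted p = 1.29e-07). In ganglion it was 3.34-fold higher than in carotid body (1.74, SE 0.17, adjusted p = 1.74e-05).

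Gal, the precursor of galanin (TC1900000879.mm.1), had the same order of tissues. The adrenal medulla arrays gave 13.73, 12.93, 13.35 and 12.30, the ganglion arrays 10.86, 10.56, 10.62 and 10.77, and the carotid body arrays 8.63, 8.49 and 9.30. The tissues did not overlap, although the adrenal medulla arrays spread over more than a log2 unit. The mean was 13.08 ± 0.61 (SD, n = 4) in adrenal medulla, 10.70 ± 0.14 (SD, n = 4) in ganglion and 8.80 ± 0.43 (SD, n = 3) in carotid body. Adrenal medulla exceeded carotid body 19.4-fold (difference 4.27, SE 0.30, limma adjusted p = 1.66e-06) and ganglion 5.20-fold (2.38, SE 0.28, adjusted p = 4.56e-05), and ganglion exceeded carotid body 3.72-fold (1.90, SE 0.30, adjusted p = 0.000479). Both Npy and Gal were highest on carotid body replicate 3. The 4 markers shared by chromaffin and glomus cells (Th, Dbh, Chga and Chgb, all above the bound in every tissue) ran in the same tissue order, with a summed level of 21.64 to 21.71 in adrenal medulla, 20.52 to 20.62 in ganglion and 18.24 to 19.94 in carotid body. Of the 4, Th and Dbh had means in that order, with no call between adrenal medulla and ganglion, whereas Chga and Chgb were called higher in carotid body than in ganglion. Their part in the Npy and Gal differences was not tested.

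Vip, the precursor of vasoactive intestinal peptide, a vasodilator (TC1000000036.mm.1), was higher in carotid body than in either other tissue. The carotid body arrays gave 8.22, 7.04 and 7.53, the adrenal medulla arrays 6.24, 6.14, 5.88 and 5.51, and the ganglion arrays 6.24, 5.73, 6.24 and 5.89. Every carotid body array lay above every other array, and the adrenal medulla and ganglion arrays overlapped. The mean in carotid body was 7.60 ± 0.59 (SD, n = 3), 3.15-fold above the 5.94 ± 0.33 (SD, n = 4) of adrenal medulla (difference 1.65, SE 0.27, limma adjusted p = 0.000727) and 2.97-fold above the 6.03 ± 0.26 (SD, n = 4) of ganglion (1.57, SE 0.27, adjusted p = 0.000795). Ganglion and adrenal medulla differed by 0.08 (95% interval -0.46 to 0.63, adjusted p = 0.824), so their order is not given by these arrays.

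The order of the 3 carotid body pools in Vip was also that of several marker lists. The summed level of 6 sympathetic neuron markers (of 7 listed, all 6 above the bound in each tissue) was 17.21, 14.81 and 15.97 on carotid body replicates 1 to 3, the same order as Vip, against 19.15 to 19.34 in ganglion and 12.86 to 13.41 in adrenal medulla. The same pools had that order in chromaffin and glomus (19.94, 18.24 and 19.06), endothelial (13.87, 13.45 and 13.55) and fibroblast markers (18.13, 17.94 and 18.04). The other marker lists had another order. The part of neuron RNA, or of RNA of these other cell types, in the Vip difference was not tested. Without carotid body replicate 1 the Vip difference was 1.34 from adrenal medulla and 1.26 from ganglion. Of 3 cholinergic neuron markers, Chat and Slc18a3 had means under the bound in every tissue, and Slc5a7 exceeded it in ganglion alone (5.88 ± 0.47, SD, n = 4), with summed levels of 6.15 to 6.29 in carotid body, 5.86 to 6.08 in adrenal medulla and 6.28 to 6.85 in ganglion. Summed markers of several other cell types were highest in carotid body, as Vip was. Glomus markers (5 of 5 above the bound in each tissue) lay at 19.26 to 19.65 in carotid body, 16.87 to 17.11 in adrenal medulla and 11.71 to 12.62 in ganglion. Among them Kcnk9 was instead higher in adrenal medulla (16.57) than in carotid body (12.81). Summed fibroblast markers (4 of 4 measured above the bound in each tissue) lay at 17.94 to 18.13 in carotid body, 12.94 to 13.17 in adrenal medulla and 16.02 to 16.20 in ganglion. Smooth muscle markers (3 of 3 above in each) lay at 16.41 to 16.88, 10.15 to 10.27 and 8.57 to 9.06 in the same order of tissues. Mast cell markers (4 of 4 above in carotid body, 0 in adrenal medulla and 2 in ganglion) lay at 12.34 to 13.36, 6.76 to 7.01 and 7.30 to 7.57. Their part in the Vip difference was not tested either.

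Penk, the precursor of the enkephalins, opioid peptides (TC0400002139.mm.1), was dim in all tissues and ran carotid body, adrenal medulla, ganglion from high to low. It measured 7.09, 6.85 and 6.77 on the carotid body arrays, 6.74, 6.34, 6.20 and 5.90 on the adrenal medulla arrays, and 5.63, 5.63, 5.13 and 5.65 on the ganglion arrays, 1 of which was under the bound. The tissues did not overlap, by a margin of 0.03 between carotid body and adrenal medulla. Carotid body (6.90 ± 0.16, SD, n = 3) exceeded ganglion (5.51 ± 0.26, SD, n = 4) by at least 2.48-fold (difference 1.39, SE 0.19, limma adjusted p = 0.000193), where "at least" means that dim arrays were set to the bound. The steps to adrenal medulla (6.30 ± 0.35, SD, n = 4) were under 2-fold and were not called. They were 0.61 from carotid body (95% interval 0.18 to 1.03, adjusted p = 0.0356, 0.0083 to 0.107 over the alternatives) and 0.78 from ganglion (0.39 to 1.18, adjusted p = 0.00532).

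Cartpt, the precursor of the CART peptides, which act in feeding and stress (TC1300002525.mm.1), was highest in adrenal medulla. The adrenal medulla arrays gave 7.72, 7.74, 7.34 and 6.91, the carotid body arrays 6.33, 6.11 and 6.29, and the ganglion arrays 6.38, 6.15, 6.36 and 6.57. All adrenal medulla arrays lay above the others, which overlapped. The mean of 7.43 ± 0.39 (SD, n = 4) was 2.27-fold above the 6.25 ± 0.12 (SD, n = 3) of carotid body (difference 1.18, SE 0.19, limma adjusted p = 0.000671) and 2.09-fold above the 6.36 ± 0.17 (SD, n = 4) of ganglion (1.07, SE 0.17, adjusted p = 0.000573). The call against ganglion sits at the 2-fold limit and was lost without adrenal medulla replicate 1 (0.97) or 2 (0.96) or ganglion replicate 2 (0.99). Carotid body and ganglion differed by 0.12 (95% interval -0.30 to 0.53, adjusted p = 0.698).

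The other 5 precursors lay at or under the bound. Sst, the precursor of somatostatin, an inhibitory hormone, averaged 5.55 ± 0.04 (SD, n = 3) in carotid body, 5.36 ± 0.09 (SD, n = 4) in adrenal medulla and 5.42 ± 0.15 (SD, n = 4) in ganglion, all within 0.15 of the bound, with means above it in carotid body and adrenal medulla and just under it in ganglion. Its largest tissue difference was 0.19 (95% interval -0.01 to 0.39, carotid body above adrenal medulla). Adcyap1, the precursor of PACAP, a peptide of the nerves that drive chromaffin cells, averaged 4.52 ± 0.16 in carotid body, 4.35 ± 0.17 in adrenal medulla and 5.23 ± 0.30 in ganglion. Its ganglion arrays gave 5.21, 5.25, 4.87 and 5.60, above every other array, yet only the last exceeded the bound. The ganglion differences of 0.88 from adrenal medulla (adjusted p = 0.000701) and 0.71 from carotid body (adjusted p = 0.00494) were under 2-fold, and the first just reached that limit without ganglion replicate 3.

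Tac1, the precursor of substance P, a peptide of sensory nerves, gave 4.73, 5.17 and 4.88 on the carotid body arrays, 4.33 to 4.44 on the adrenal medulla arrays and 4.40 to 4.89 on the ganglion arrays. Carotid body exceeded adrenal medulla by 0.54 (95% interval 0.25 to 0.82, adjusted p = 0.00888), entirely under the bound, so no fold is given. Nts, the precursor of neurotensin, stayed between 4.21 and 4.67 on all arrays, and its largest tissue difference was 0.06 (95% interval -0.16 to 0.28). Cck, the precursor of cholecystokinin, stayed between 3.94 and 4.42, with a largest tissue difference of 0.22 (95% interval 0.01 to 0.43, adjusted p = 0.11). A signal in this range does not show that a transcript was missing, because probes differ in brightness and rare cells are diluted in whole tissue. With the bound at the 99th percentile of the silent genes (6.79, 6.35 and 6.44 in carotid body, adrenal medulla and ganglion), Npy and Gal remained above it in every tissue, with Vip and Penk in carotid body and Cartpt in adrenal medulla. With the bound taken from 1225 olfactory receptor genes instead (5.25, 5.07 and 5.22), Adcyap1 and Sst also lay above it in ganglion, which made 7 of the 10 genes there, and 6 lay above it in each other tissue.

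**Figure D2:**
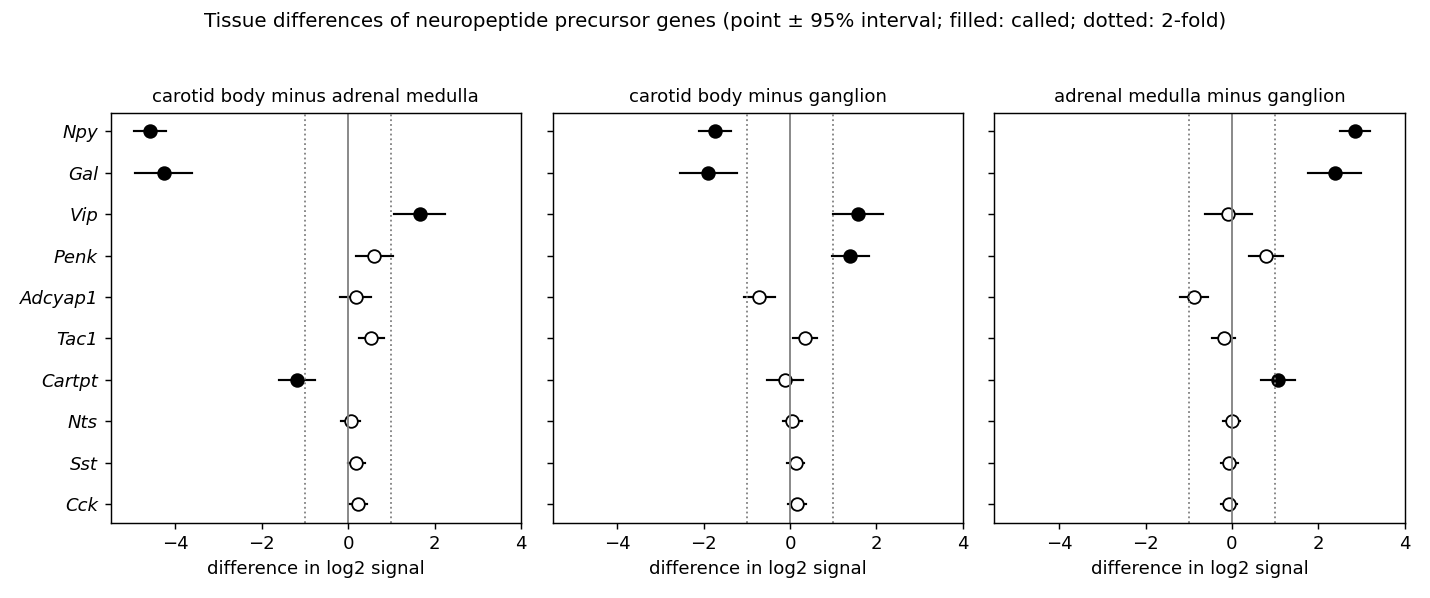
Differences in log2 signal (horizontal axis) of the 10 genes in the 3 tissue comparisons, as limma estimates with 95% intervals, filled where called and open where not, with dotted lines at a 2-fold difference. Npy and Gal lie far to the adrenal medulla side (-4.58 and -4.27 as carotid body minus adrenal medulla), Vip lies to the carotid body side in both of its comparisons, and Nts, Sst and Cck stay near 0.

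Counting genes whose arrays did not overlap gave 7 of 10 between carotid body and adrenal medulla (38.3% of all genes), 5 of 10 between carotid body and ganglion (35.9%) and 5 of 10 between adrenal medulla and ganglion (36.9%). These counts include differences as small as those of Sst and Tac1. With the adjusted p alone and no limit on the difference, 6 of the 10 passed between carotid body and adrenal medulla (29.3% of all genes), 5 between carotid body and ganglion (34.1%) and 5 between adrenal medulla and ganglion (34.4%).

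Among the adrenal medulla pools, replicate 4 gave the lowest value of 5 of the 6 genes above the bound there. It was lowest for Npy, Gal, Vip, Penk and Cartpt, by 1.43 from the highest pool for Gal and by 0.36 for Npy, and Sst was lowest on replicate 3. Cyp11b2, the aldosterone enzyme of the outer cortex, gave 8.32, 9.24, 9.70 and 11.46 on replicates 1 to 4 and was highest on the same pool. Of the other 6 cortex markers, Cyp11a1 and Mc2r were also highest on replicate 4, Cyp11b1 and Hsd3b1 were highest on replicate 2 and Cyp21a1 on replicate 1, and Star varied by 0.02. The summed cortex level was highest on replicate 4 (21.40) and the summed chromaffin and glomus level lowest (21.64), both by small margins. Of the markers in the latter sum, Th, Dbh and Chgb were lowest on replicate 4 and Chga on replicate 2. Dbh read 19.845 on replicates 1 to 3 and 19.838 on replicate 4. Pnmt was lowest on replicate 2 (13.39, against 13.72 on replicate 4). The part of this in the tissue differences was not tested. Without replicate 4, adrenal medulla exceeded carotid body by 4.66 for Npy and 4.53 for Gal, and Cartpt by 1.36, and all 3 remained called. Penk then differed from carotid body by 0.48 and Vip by 1.51.

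**Figure D3:**
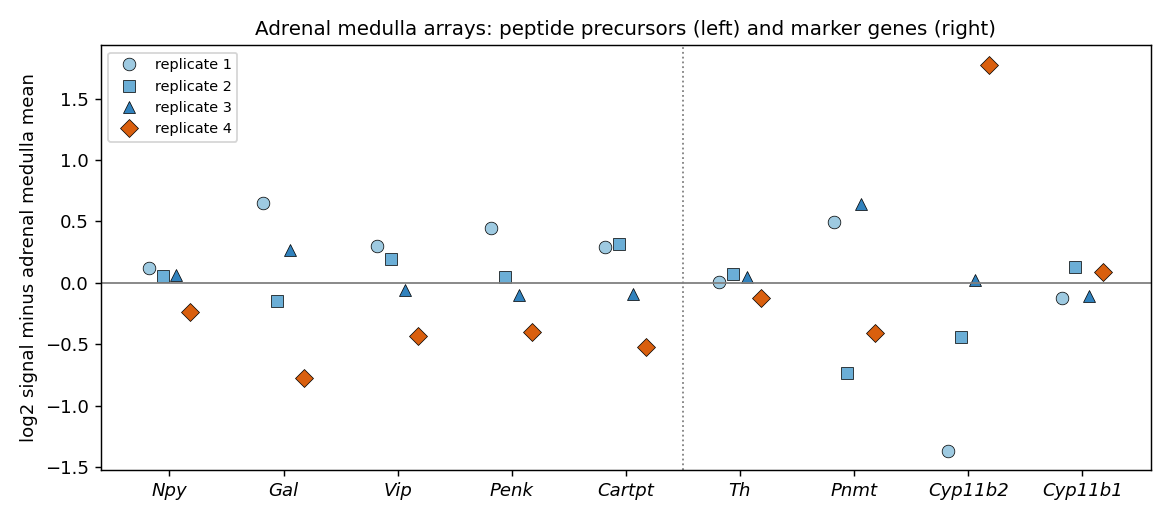
Log2 signal of each adrenal medulla array minus the mean of the 4 arrays (vertical axis) for 5 precursor genes on the left and 4 marker genes on the right, with replicate 4 in orange. Replicate 4 is lowest for Npy, Gal, Vip, Penk and Cartpt and highest for Cyp11b2 (11.46 against 8.32 to 9.70). Pnmt is lowest on replicate 2.

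The genes whose signal ran most like that of a precursor over the 11 arrays were found among 12527 protein-coding genes above the bound in some tissue. Pearson's r is a description here, because arrays of a tissue cluster and the tissue means set most of it. Closest to Npy were Ppt1, a lysosomal thioesterase (r = 0.992), Cd55, a complement regulator (0.989), and 1500009L16Rik (0.989). Closest to Gal were Cd55b (0.995), Cd55 (0.992) and Npy itself (0.985). Cd55 and Cd55b are paralogues, and their features may share RNA, which was not tested. Cd55 averaged 13.95 in adrenal medulla, 12.11 in ganglion and 11.02 in carotid body, the tissue order of both peptides.

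For Cartpt the closest were Lrrtm3, a synaptic adhesion protein (r = 0.984), Seh1l, a nuclear pore protein (0.974), and Utp18 (0.97). For Vip they were Scml2 (0.967), Clec2f (0.955) and Lmna, a nuclear lamin (0.95), and for Penk they were Dll1, a Notch ligand (0.966), Lmo2 (0.955) and Smad7, an inhibitor of TGF-beta signalling (0.954). The ranges of these genes varied. Lmna had a mean of 7.47 in carotid body against 6.98 in adrenal medulla. Wider ranges were those of Lrrtm3 (6.97 in adrenal medulla, 5.75 in carotid body) and Smad7 (6.605 in carotid body, 5.35 in ganglion). For Sst, at the bound, the closest was Zranb2 (0.915), with tissue means of 9.06, 9.05 and 9.06 in carotid body, adrenal medulla and ganglion, followed by Frmd6 (0.857) and Gpr27 (0.821).

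Receptors of these peptides were compared next, from a list of 27 genes, of which 25 were measured (Galr3 and Cckar lie on features with several symbols and were not analysed here). Of the 25, adrenal medulla had 5 called higher than carotid body and 1 called lower. Between carotid body and ganglion 2 were called, both higher in ganglion, and between adrenal medulla and ganglion 6, of which 5 were higher in adrenal medulla. These are 24%, 8% and 24% of the list, beside 11%, 13.9% and 13.2% of all genes. Means lay above the bound in at least 1 tissue for 12 of the 25. The median difference of the list was 0.04, -0.08 and -0.02 in the 3 comparisons.

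The receptor of neuropeptide Y that differed was Npy2r, which dampens release from the terminals that bear it. It gave 10.22, 10.61, 10.92 and 10.56 on the adrenal medulla arrays, 5.59, 6.46 and 6.10 on the carotid body arrays and 5.71 to 6.11 on the ganglion arrays. Adrenal medulla stood apart from the other tissues, 23.1-fold above carotid body (difference 4.53, SE 0.21, limma adjusted p = 7.47e-08) and 25.8-fold above ganglion (4.69, SE 0.19, adjusted p = 1.4e-08). Npy1r, the main vascular receptor, averaged 8.37 ± 0.29 (SD, n = 3) in carotid body, 8.36 ± 0.44 (SD, n = 4) in adrenal medulla and 9.01 ± 0.54 (SD, n = 4) in ganglion and was not called. Npy5r lay near the bound at 5.54, 5.65 and 5.55 in the same order.

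Galr1, an inhibitory galanin receptor, averaged 6.73 ± 0.29 (SD, n = 4) in adrenal medulla against 5.49 ± 0.17 (SD, n = 3) in carotid body and 5.23 ± 0.18 (SD, n = 4) in ganglion, at least 2.31-fold above carotid body (limma adjusted p = 0.000163) and at least 2.42-fold above ganglion (adjusted p = 1.37e-05). The precursors Npy and Gal and the receptors Npy2r and Galr1 were thus all highest in adrenal medulla. Npy1r averaged highest in ganglion, uncalled, and Galr2, Npy4r and Npy6r had means under the bound in every tissue. Between carotid body and ganglion neither Npy2r nor Galr1 was called. Carotid body minus ganglion was 0.16 for Npy2r (95% interval -0.30 to 0.62) and 0.26 for Galr1 (-0.10 to 0.61).

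Adcyap1r1, the PACAP receptor, averaged 13.50 ± 0.29 (SD, n = 4) in adrenal medulla, 12.40 ± 0.31 (SD, n = 4) in ganglion and 10.20 ± 0.61 (SD, n = 3) in carotid body, although its ligand gene Adcyap1 lay under the bound. Adrenal medulla exceeded carotid body 9.88-fold (limma adjusted p = 5.61e-06) and ganglion exceeded it 4.61-fold (adjusted p = 8.81e-05). The step from adrenal medulla to ganglion was 2.14-fold (1.10) and fell under the limit without adrenal medulla replicate 3 (0.97) or ganglion replicate 2 (0.98). The carotid body arrays gave 10.85, 9.65 and 10.09. This was the order of the neuron, chromaffin and glomus, endothelial and fibroblast markers, whose part was not tested. Of the receptors shared by VIP and PACAP, Vipr1 was under the bound in each tissue and Vipr2 reached 5.58 ± 0.15 in carotid body, where Vip was highest, 0.18 above the bound.

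Tacr2, the neurokinin A receptor, gave 12.35, 12.92, 11.49 and 11.92 on the adrenal medulla arrays, and 5.21 to 5.70 on all others. It was at least 108-fold higher in adrenal medulla than in carotid body (difference 6.82, SE 0.27, limma adjusted p = 2.4e-08) and at least 101-fold higher than in ganglion (6.74, SE 0.25, adjusted p = 6.95e-09). The gene of its ligand, Tac1, was under the bound there. Sstr2, a somatostatin receptor, averaged 7.13 ± 0.55 (SD, n = 4) in adrenal medulla, 6.06 ± 0.30 (SD, n = 4) in ganglion and 5.17 ± 0.14 (SD, n = 3) in carotid body, at least 3.31-fold above carotid body. Its 2.10-fold step above ganglion was not called without adrenal medulla replicate 1 (0.90) or 2 (0.94) or ganglion replicate 3 (0.975).

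For neurotensin, Ntsr1 was highest in ganglion at 7.64 ± 0.48 (SD, n = 4), 3.28-fold above the 5.93 ± 0.09 (SD, n = 3) of carotid body (limma adjusted p = 0.000132) and at least 4.33-fold above adrenal medulla (adjusted p = 1.07e-05). Sort1, a sorting receptor that also binds neurotensin, was the receptor gene for which carotid body exceeded adrenal medulla, at 11.49 ± 0.52 (SD, n = 3) against 10.12 ± 0.10 (SD, n = 4), a 2.59-fold difference. Oprd1, the enkephalin-binding delta opioid receptor, averaged 5.53, 6.17 and 6.36 in carotid body, adrenal medulla and ganglion and was not called. Oprm1, Oprk1, Tacr1, Tacr3 and Cckbr were under the bound in each tissue. Sstr4 lay at it, between 5.33 and 5.56.

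**Figure D4:**
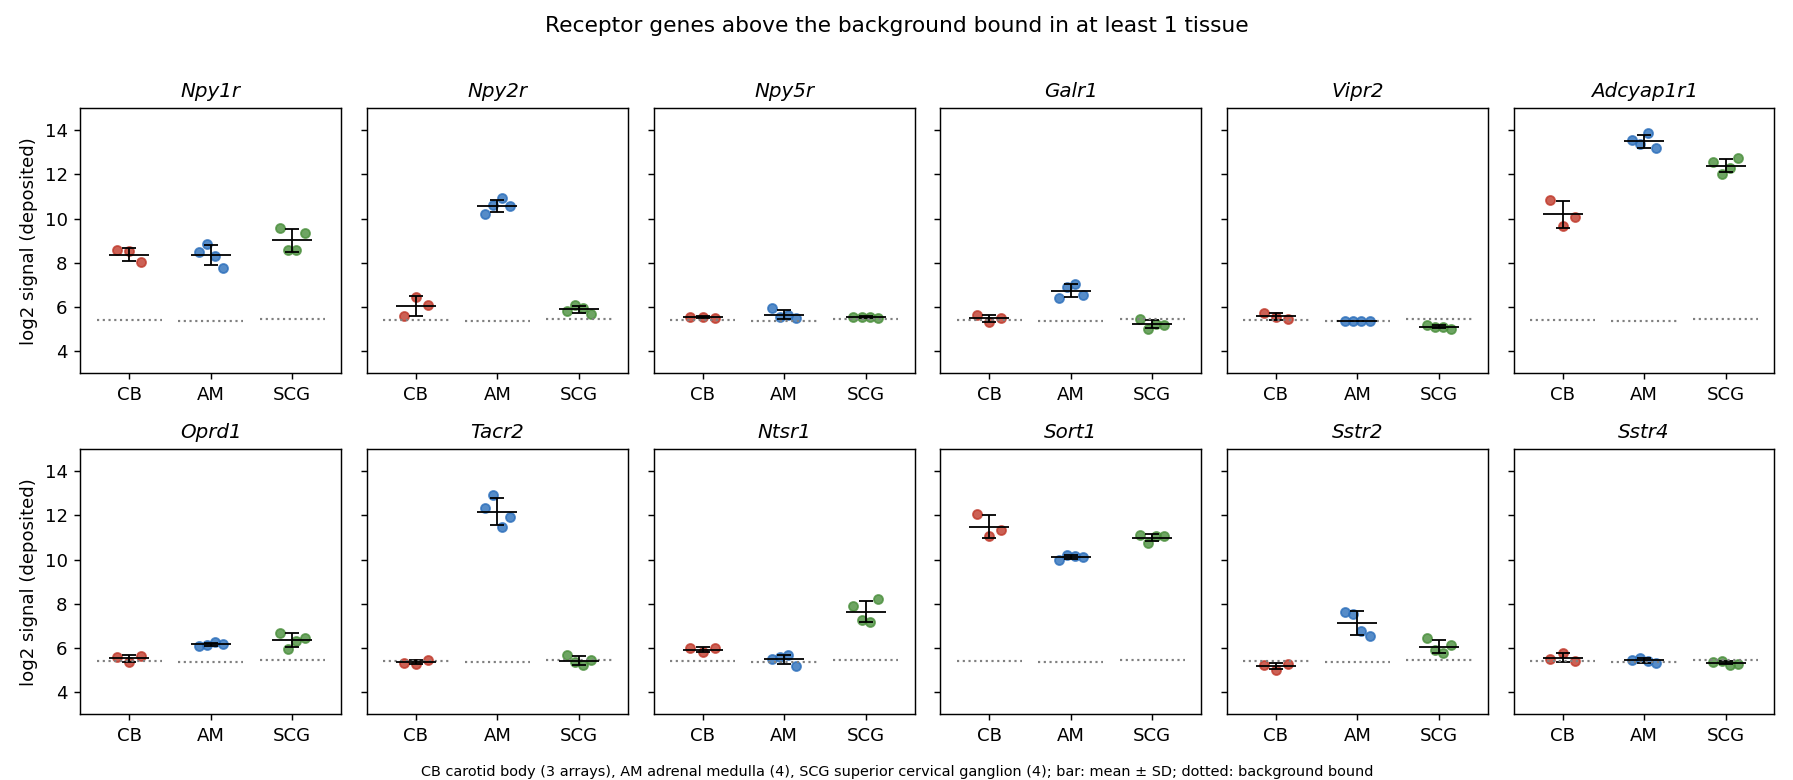
Log2 signal (vertical axis) on each array for the 12 measured receptor genes with a mean above the background bound in at least 1 tissue, with means and SD in black and the bound dotted. Npy2r and Tacr2 are high in adrenal medulla (10.58 and 12.17) and near the bound elsewhere, Adcyap1r1 runs adrenal medulla, ganglion, carotid body from high to low, and Ntsr1 is highest in ganglion.

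A list of 59 other peptide precursor genes had 53 measured members, of which 42 had means under the bound in all tissues. Adm, the precursor of the vasodilator adrenomedullin, was 63.9-fold higher in carotid body (14.72 ± 0.18, SD, n = 3) and 44.7-fold higher in adrenal medulla (14.20 ± 0.37, SD, n = 4) than in ganglion (8.72 ± 0.52, SD, n = 4). Edn1, the precursor of the vasoconstrictor endothelin-1, gave 7.26, 6.60 and 7.52 on the carotid body arrays and lay between 4.62 and 5.20 on all others. It joined Vip as a precursor that was highest in carotid body, at least 3.40-fold above adrenal medulla (limma adjusted p = 5.12e-06) and at least 3.19-fold above ganglion (adjusted p = 1.07e-05). Endothelial markers (3 of 3 above the bound in each tissue) were also highest in carotid body, with summed levels of 13.45 to 13.87 against 12.24 to 12.58 in adrenal medulla and 9.35 to 9.87 in ganglion, and their part was not tested.

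Edn3, the precursor of endothelin-3, was instead highest in ganglion, with 11.63 ± 0.14 (SD, n = 4) in ganglion, 9.89 ± 0.20 (SD, n = 4) in adrenal medulla and 8.26 ± 0.75 (SD, n = 3) in carotid body. Nucb2, the precursor of nesfatin-1, averaged 10.64, 9.80 and 8.67 in adrenal medulla, carotid body and ganglion. In all, 2 of the 53 genes differed by the call rule between adrenal medulla and carotid body (1 in each direction), 4 between carotid body and ganglion (3 higher in carotid body) and 3 between adrenal medulla and ganglion (2 higher in adrenal medulla). These are 3.77%, 7.55% and 5.66% of the list, beside 11%, 13.9% and 13.2% of all genes. The list is mostly dim, with 10, 11 and 10 genes above the bound in either tissue of a comparison. A fit of only the 17648 genes above the bound in at least 1 tissue called 3318, 4213 and 4045 of them. The calcitonin gene-related peptide gene Calca was not analysed here, and its paralogue Calcb was under the bound throughout.

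Enzymes that cut and trim the precursors were measured for 15 of 16 listed genes, and all 15 were above the bound in at least 1 tissue. The remaining gene, the convertase Pcsk2, was not analysed here. Pcsk1, a prohormone convertase of the regulated pathway, followed the order of Npy and Gal. It averaged 13.80 ± 0.25 (SD, n = 4) in adrenal medulla, 10.65 ± 0.35 (SD, n = 4) in ganglion and 7.60 ± 0.64 (SD, n = 3) in carotid body. Ganglion exceeded carotid body 8.31-fold (limma adjusted p = 1.2e-05). Pcsk1n, which encodes an inhibitor of that convertase, was lower in carotid body (8.44 ± 0.34, SD, n = 3) than in adrenal medulla (10.36 ± 0.48, SD, n = 4) and ganglion (10.26 ± 0.21, SD, n = 4), and its difference between the latter tissues was not called.

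Pcsk5, another convertase, was 19.2-fold higher in adrenal medulla than in carotid body and 33.5-fold higher than in ganglion. Pcsk6 was the convertase highest in carotid body, 4.06-fold above adrenal medulla (limma adjusted p = 9.51e-07) and 3.78-fold above ganglion (adjusted p = 1.69e-06), at 7.82 ± 0.28 (SD, n = 3). Cpe, the carboxypeptidase that trims the cut ends, averaged 15.16, 15.20 and 15.04 in carotid body, adrenal medulla and ganglion, and Pam, which amidates peptide ends, 13.26, 13.60 and 12.73. Neither was called in any comparison. Furin, a convertase of the Golgi, was 2.39-fold higher in adrenal medulla than in ganglion, Cpd, a carboxypeptidase, was 2.57-fold higher in carotid body than in ganglion, and Qpctl, a glutaminyl cyclase, was 2.79-fold higher in adrenal medulla than in carotid body. The list had 5 calls between adrenal medulla and carotid body (4 higher in adrenal medulla), 4 between carotid body and ganglion (2 in each direction) and 3 between adrenal medulla and ganglion (all higher in adrenal medulla). These are 33.3%, 26.7% and 20% of the 15, beside 11%, 13.9% and 13.2% of all genes. The 2 sets are unlike in signal, because all 15 lay above the bound and many of all genes did not. Of the 17648 genes above the bound in at least 1 tissue, fitted alone, 3318, 4213 and 4045 were called in these comparisons.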

How the data were processed

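Total RNA of 11 tissue pools was amplified and hybridised to Affymetrix mouse transcriptome arrays, per the labels' protocols. The authors deposited log2 values; the submitters' processing notes name RMA and Affymetrix Expression Console, without versions. Base 2 is assumed, as is usual for RMA, and folds hold on the deposited scale alone. RMA pulls arrays to a common distribution, which can shrink differences that most genes share. Their genome build is not given in the sources used here.

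Names came from the array's annotation. Of 72688 features (6732 of them controls), 30604 had 1 symbol and 2146 several, and the brightest feature by its mean over all arrays stood for a gene (355 genes had several). Older symbols were replaced by current RefSeq ones, matched on Entrez identifier. One limma fit (3.58.1, R 4.3.3; lmFit and eBayes) over the 11 arrays had tissue as its only factor, with Benjamini-Hochberg adjustment over 30142 genes, and was tested on simulated data. P-values measure the spread between pools. The number of arrays limits the precision.

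The 10 genes and the gene lists were chosen with earlier results of these data known. The text names all 10 genes; up to 5 called genes per list, comparison and direction with the largest difference; each receptor above the bound in some tissue; and for each of the 10 genes above the bound the 3 protein-coding genes with the highest Pearson's r. Markers and uncalled genes of the lists were named after their values were seen. Alternatives were the scaling, the genes tested, dim genes, moderation, array weights, the replicate number as a block, the feature of a gene, the tissues in the fit, the 2-fold limit, the bound and leaving out each array.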

Additional observations from a re-analysis of the deposited data

Results flagged for a closer look

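Within groups of 4 arrays, 1 array of a named gene stood apart from the other 3 in 5 of 50 groups looked at, where chance gives about 1 in 20. Penk measured 5.13 on ganglion replicate 3, against 5.63 to 5.65 on the other ganglion arrays. The lowest ganglion array of Sort1 was replicate 2 at 10.77 (others 11.06 to 11.10), and the same replicate was lowest for Furin at 6.60 (others 6.81 to 6.83). Npy5r gave 5.50 on ganglion replicate 4, against 5.56 on the others, near the bound. Some genes held exactly the same value on several arrays. Npy5r was 5.5617 on ganglion replicates 2 and 3 and carotid body replicates 1 and 2, and Pam was 13.2637 on all 3 carotid body arrays. Such repeats lower the SD within a tissue. Cpd was highest on adrenal medulla replicate 4 at 11.45 (others 11.25 to 11.27).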

How the results depend on the processing

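Across 21 other settings, 11 of which left out 1 array, 43 of the 46 called differences of named genes stayed called in each setting that tested them. The exceptions were Cartpt, Adcyap1r1 and Sstr2 between adrenal medulla and ganglion, each near the 2-fold limit. No called difference changed sign, and 19 of 1353 alternative values, none of them called, had the opposite sign to the reported one. With any 1 array left out, 4 precursor genes were again called in each comparison with carotid body, and 2 to 4 between adrenal medulla and ganglion. Without the 2-fold limit, 5 of the 10 were called between adrenal medulla and ganglion, 6 receptors between carotid body and ganglion and 14 between adrenal medulla and ganglion, and 7 other precursors between carotid body and adrenal medulla and 8 between adrenal medulla and ganglion. By the same rule 29.3% of all genes passed between carotid body and adrenal medulla, 34.1% between carotid body and ganglion and 34.4% between adrenal medulla and ganglion. Some of the list genes that passed had means under the bound in both tissues compared. Between adrenal medulla and ganglion these included the receptors Npy4r, Npy6r, Galr2, Vipr2, Oprm1, Oprk1 and Sstr3. Between carotid body and adrenal medulla they included the precursors Adm2, Nmb, Pyy and Apln. With the 99th percentile bound, 3 of the 10 genes lay above it in adrenal medulla and 2 in ganglion, and with the olfactory receptor bound 6 and 7.

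The deviations of same-numbered arrays from their tissue means had r between -0.173 and 0.252 over all genes. Arrays of different number had r between -0.343 and 0.342, and nothing in the labels pairs the arrays. With the replicate number as a block the counts were again 4, 4 and 3. Median centring moved the median of all genes between carotid body and adrenal medulla from 0.05 to -0.10 and turned the split of all called genes there from 1828 higher and 1492 lower in carotid body to 1577 and 1966; quantile normalization turned that between carotid body and ganglion from 1691 and 2496 to 2150 and 2048, and that between adrenal medulla and ganglion from 1725 and 2262 to 2218 and 1896. Signals near the bound limit what can be said of Sst, Adcyap1, Tac1, Nts and Cck.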
